A study of Homo sapiens with 6 samples.

Results

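NCI-H460 cells carrying the first of 2 guides against CPT1 (sg1) were compared with NCI-H460 cells carrying a nontargeting guide (sgNTG). The comparison takes the 2 sg1 and 2 sgNTG libraries, 4 of the 6 libraries of the study, by their column names, and every listed gene whose 6 libraries averaged 1 FPKM or more. That gave 8887 tested genes of 51447 listed names. The 2 libraries of the other CPT1 guide (sg2) are given beside them. NCI-H460 is an established human large cell lung carcinoma line. Cells of all 3 groups had been infected with a lentiviral vector for KRAB-dSpCas9 and a guide, and selection in 2 μg/ml puromycin began 48 h after infection and was maintained. The sg1 and sg2 cells are labelled as CPT1 knockdown and the sgNTG cells as WT. The labels leave unstated the CPT1 isoform targeted, whether the cells were pools or clones, and whether replicate libraries stem from different cultures, so the spread that p-values are read against may be technical. The CPT1 genes were not analysed here, so these values do not show how far sg1 lowered its target.

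CPT1 is the family of carnitine palmitoyltransferases of the outer mitochondrial membrane. They join long-chain fatty acids to carnitine, a carrier passes the acylcarnitine across the inner membrane, and CPT2 returns the acyl group to coenzyme A for oxidation. CRISPR interference brings a KRAB repressor domain to a promoter on a Cas9 that cannot cut, and so lowers transcription of the gene.

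Values are FPKM, the fragments assigned to a gene scaled to transcript length and to the mapped fragments of the library. They summed to 251704.3 to 260500.2 per library, with 21764 to 22554 genes above 0, and the depth behind them is unknown. Of the 19951 genes that GENCODE 29 calls protein-coding, the table used here lists 13067 (65.5%), and every gene list below is covered in part. Of the markers used to check the line, KRT18 measured 87.4 to 102 FPKM and KRT19 141 to 179 over the 6 libraries, while CDH1 stayed at or below 0.105. The alveolar markers SFTPA1, SFTPB and NKX2-1 were at or below 0.0622 FPKM and COL1A2, CLDN5 and CD3D at or below 0.0292. Other members of these marker lists were higher. The summed alveolar and airway markers were 0.955 to 1.43 FPKM over the 6 libraries and the summed endothelial markers 1.63 to 2.44. In each of these 2 lists 1 member reached the filter. The fibroblast marker LUM at 44.6 to 49.7 FPKM and the myeloid marker CD68 at 21.5 to 26.5 were present in all groups. The summed fibroblast markers were 54.0 and 56.5 FPKM in sgNTG cells and 58.1 and 59.8 in sg1, and the summed leukocyte markers 32.5 and 34.9 in sgNTG cells and 31.1 and 34.3 in sg1.

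With sg1, 1 gene rose past the threshold of an adjusted p of 0.05 and none fell. The 1 gene was RN7SL2, a copy of 7SL RNA, the RNA scaffold of the signal recognition particle. The genes called higher were thus 0.0113% of those tested and the genes called lower 0%. The numbers higher and lower were 4 and 2 when sgNTG replicate 2 was left out, 3 and 0 for sg1 replicate 1, and 0 and 1 for sgNTG replicate 1 and for sg1 replicate 2. Most genes differed little. The median absolute log2 difference was 0.098 to 0.104 between 1 sg1 and 1 sgNTG library, beside 0.087 between the 2 sgNTG libraries and 0.087 between the 2 sg1 libraries. Between the group means it was 0.078, but means of 2 libraries vary less than single libraries, so this value cannot be set against 0.087. At an unadjusted p under 0.05 there were 882 genes, 522 with positive log2 fold changes (5.87% of tested genes) and 360 with negative ones (4.05%), with a median absolute log2 fold change of 0.22. The 2 sg1 libraries both lay above both sgNTG libraries in 1974 genes (22.2%) and both below in 1676 (18.9%). Among these non-overlapping genes 55 had a positive and 50 a negative log2 fold change beyond 0.5. Fold changes were taken between log2(FPKM + 1) values, so those of genes near 0 come out too small, and their median over all tested genes was 0.0070. In bulk libraries a change in the share of cells of a type and a change in RNA per cell cannot be told apart.

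RN7SL2 lies on the minus strand at chr14:49862550-49862849 (hg38, GENCODE 29). RN7SL1 (chr14:49586580-49586878, plus strand), on the same chromosome, encodes the same RNA with 4 mismatches and 1 gap position, an identity of 98.3%. The copy RN7SL3 (chr14:49853616-49853914, minus strand) lies nearer to RN7SL2. RN7SL81P (chr7:128761338-128761598, plus strand) is a shorter 7SL pseudogene at 74% identity inside CALU on the same strand. Reads from copies this alike can be divided between them.

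RN7SL2 measured 2.74 and 2.96 FPKM in sgNTG cells, 10.6 and 10.2 in sg1, and 7.42 and 9.03 in sg2. Both sg1 libraries lay far above both sgNTG libraries, and the sg2 libraries lay between the 2 groups. The rise with sg1 was 2.97-fold on the FPKM + 1 scale (log2 fold change 1.57 with an SE of 0.0971, limma adjusted p = 0.0190). The difference between the guides did not pass the test (log2 difference of sg2 minus sg1 -0.31, limma adjusted p = 0.189). RN7SL1 measured 3.04 and 3.71 FPKM in sgNTG cells, 11.7 and 8.07 in sg1, and 10.1 and 8.66 in sg2, a log2 fold change of 1.30 in sg1 that did not pass (limma adjusted p = 0.135). RN7SL3, at 96% identity to RN7SL2, measured 0.576 and 0.394 FPKM in sgNTG cells and 2.025 and 1.501 in sg1 (log2 fold change 0.89, limma adjusted p = 0.317). RN7SL81P had the other sign, with 4.20 and 4.57 FPKM in sgNTG cells, 2.26 and 2.37 in sg1 and 3.02 and 3.10 in sg2 (log2 fold change -0.70, limma adjusted p = 0.126). CALU, the gene around it, measured 104 and 104 FPKM in sgNTG cells and 97.3 and 99.9 in sg1.

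The 3 full-length 7SL copies are the only RNA polymerase III transcripts of the 17 listed that reached the filter. 7SL RNA carries no poly(A) tail, and the libraries were made from RNA captured on mRNA beads, per the labels. How many 7SL molecules each library kept was not measured. The protein partners of 7SL were nearer to the level of other genes. SRP54, the GTPase that binds signal sequences, measured 29.5 and 30.5 FPKM in sgNTG cells, 33.4 and 33.0 in sg1 and 36.9 and 37.4 in sg2 (log2 fold change 0.14 in sg1, limma adjusted p = 0.375). SRP9 had a log2 fold change of 0.086 and SRP68 of 0.094. Over the 17 tested genes of the signal recognition particle and translocon, 4 lay under an unadjusted p of 0.05, all with positive log2 fold changes (5.87% over all tested genes) and 3 of them 7SL copies. RN7SL3 averaged 0.485 FPKM in sgNTG cells and passed the 1 FPKM filter only through the guide libraries. Its sign was thus favoured by the filter, and the 3 copies can share reads, so this count is no result about the list. The RN7SL2 call was lost when sgNTG replicate 1 (limma adjusted p = 0.143), sg1 replicate 1 (0.0832) or sg1 replicate 2 (0.0947) was left out, and its log2 fold change stayed between 1.53 and 1.61 when any 1 of these 4 libraries was left out.

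**Figure D1:**
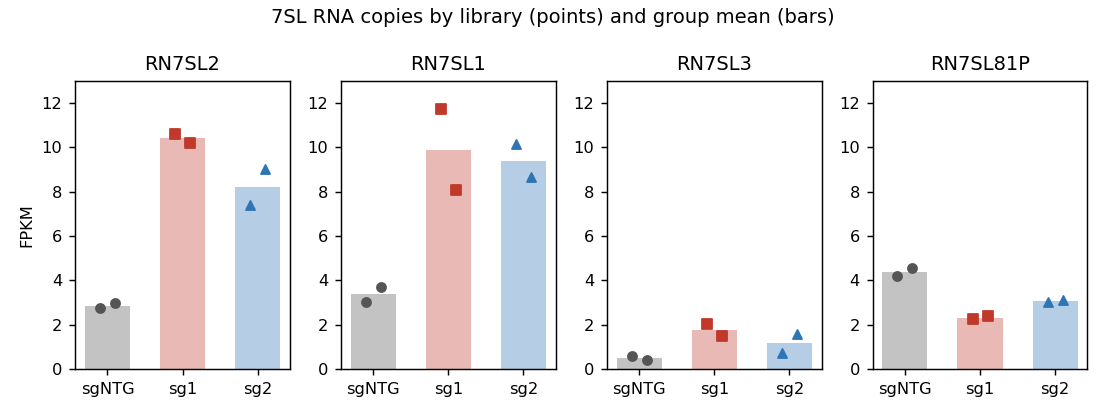
FPKM of 4 copies of 7SL RNA (1 panel each) in the 6 libraries, with points for libraries and bars for the mean of the 2 libraries of a group. RN7SL2 stands at 2.74 and 2.96 FPKM in sgNTG cells and at 10.6 and 10.2 in sg1, and RN7SL81P at 4.20 and 4.57 in sgNTG cells and 2.26 and 2.37 in sg1.

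The genes of next lowest p are given as values, since none passed. Of the 24 genes of lowest p whose sg1 and sgNTG libraries did not overlap, 12 on each side, the 23 other than RN7SL2 had limma adjusted p from 0.126 to 0.141. On the side where sg1 was lower, TFPI2, a secreted inhibitor of serine proteases, was among the most abundant, at 1371 and 1396 FPKM in sgNTG cells, 1189.7 and 1221 in sg1, and 1619.7 and 1611 in sg2. Its 3 groups did not overlap, with sg1 the lowest and sg2 the highest (log2 fold change with sg1 -0.20, SE 0.0236).

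**Figure D2:**
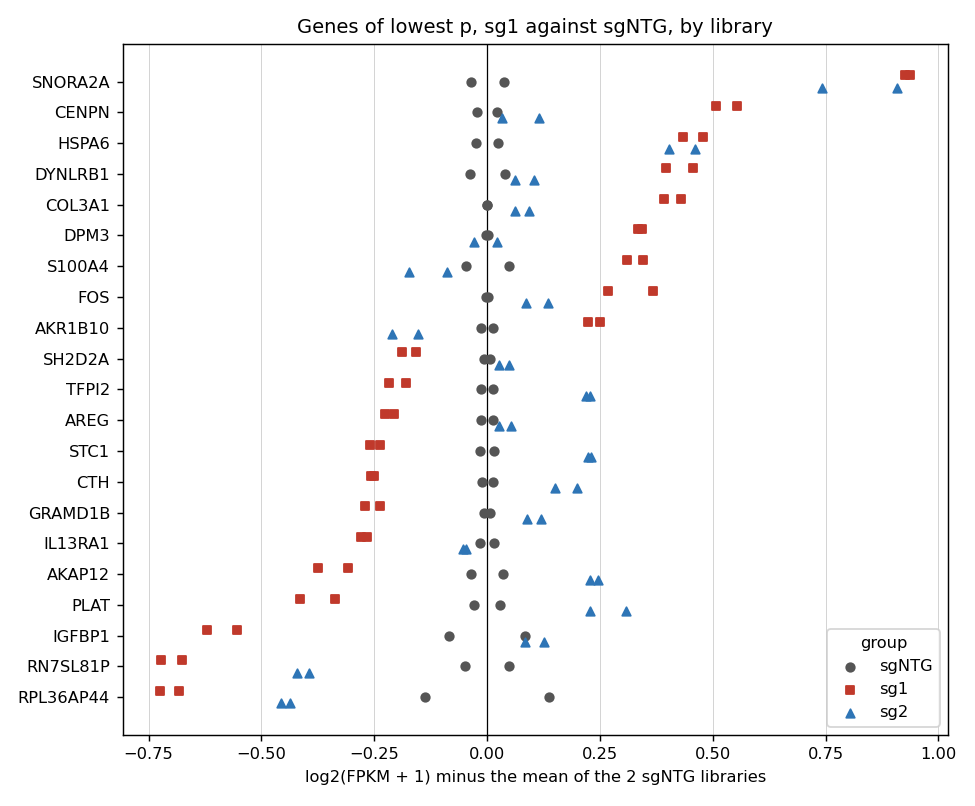
Value of each library on the log2(FPKM + 1) scale minus the mean of the 2 sgNTG libraries, for the genes of lowest p in the comparison of sg1 and sgNTG libraries. RN7SL2, RN7SL1 and ENSG00000258790 are left out for scale. Grey circles are sgNTG, red squares sg1 and blue triangles sg2. TFPI2, STC1, PLAT and AKAP12 have sg1 below and sg2 above the sgNTG libraries, and HSPA6 and SNORA2A have both guides above them.

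PLAT, the tissue plasminogen activator, measured 171 and 178 FPKM in sgNTG cells, 138 and 131 in sg1, and 204 and 216 in sg2 (log2 fold change with sg1 -0.38, SE 0.0447). THBD, thrombomodulin, which turns thrombin toward protein C, measured 46.8 and 47.4 FPKM in sgNTG cells, 39.2 and 41.7 in sg1, and 54.96 and 51.99 in sg2 (log2 fold change -0.21, limma adjusted p = 0.297). Both genes were lowest with sg1 and highest with sg2. Of the 9 tested genes of plasminogen activation and its inhibitors, 5 lay under an unadjusted p of 0.05, all with negative log2 fold changes, against 4.05% of all tested genes. They were TFPI2, PLAT, THBD and the serpins SERPINB8 (-0.19) and SERPINB5 (-0.15). This list and those below were chosen with earlier results of these data known. A count above the share of all tested genes is thus no independent support. The urokinase receptor PLAUR had a log2 fold change of -0.035, while that of tissue factor F3 was 0.065. The median of the 9 was -0.15, against 0.0070 over all tested genes, and it ranged from -0.19 to -0.13 over the alternatives tried. With sg2 the same median was 0.098. TFPI2 (log2 difference of sg2 minus sg1 0.42), PLAT (0.64) and THBD (0.39) were higher with sg2 than with sg1 past the threshold, with limma adjusted p from 0.00645 to 0.0338. In that comparison of the guides 46 genes (0.518% of those tested) were higher and 69 (0.776%) lower with sg2, and it shares the sg1 libraries with the comparison above. With any 1 of the 6 libraries left out, 3 to 12 genes were higher and 1 to 14 lower with sg2.

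Among secreted hormones and growth factor binding proteins, STC1, the glycoprotein stanniocalcin, measured 281 and 287 FPKM in sgNTG cells, 237 and 241 in sg1, and 332 and 334 in sg2 (log2 fold change with sg1 -0.25, SE 0.0277). IGFBP1, which binds insulin-like growth factors, measured 15.8 and 13.9 FPKM in sgNTG cells, 9.28 and 9.77 in sg1, and 16.3 and 15.8 in sg2 (log2 fold change -0.59, SE 0.0718). PAEP, which encodes the glycoprotein glycodelin, measured 40.2 and 35.6 FPKM in sgNTG cells, 32.2 and 30.2 in sg1, and 54.1 and 52.97 in sg2 (log2 fold change -0.27, limma adjusted p = 0.322). In all 3 genes both sg1 libraries were below both sgNTG libraries. NCAM1, a neural cell adhesion molecule, measured 107 and 101 FPKM in sgNTG cells and 88.3 and 90.8 in sg1 (log2 fold change -0.21, limma adjusted p = 0.265). GDF15, a stress-induced cytokine, had the other sign, with 4.22 and 3.67 FPKM in sgNTG cells, 6.18 and 6.004 in sg1 and 3.68 and 4.06 in sg2 (log2 fold change 0.52, limma adjusted p = 0.170). Of the 17 tested members of this list 3 lay under an unadjusted p of 0.05 with positive and 4 with negative log2 fold changes, against 5.87% and 4.05% of all tested genes. The list's median was -0.046. That median was -0.13 with a filter of 5 FPKM and -0.094 with length and GC trends removed. It was -0.010, -0.012 and -0.073 when sgNTG replicate 2, sg1 replicate 2 and sg1 replicate 1 were left out in turn. Between the guides 7 of the 17 differed past the threshold, among them STC1, IGFBP1, PAEP, NCAM1 and GDF15. Over all tested genes 0.518% were higher and 0.776% lower with sg2.

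Other surface, signalling and matrix genes stood among those of lowest p. AREG, a ligand of the EGF receptor, measured 135 and 138 FPKM in sgNTG cells, 117 and 118 in sg1, and 139 and 142 in sg2 (log2 fold change -0.22). AKAP12, a scaffold that holds protein kinases A and C, measured 27.5 and 28.9 FPKM in sgNTG cells, 21.5 and 22.6 in sg1, and 33.6 and 33.2 in sg2 (-0.34). IL13RA1, a chain of the interleukin-13 receptor, measured 35.8 and 35.03 FPKM in sgNTG cells, 29.03 and 29.3 in sg1, and 34.1 and 34.2 in sg2 (-0.27). In these 3 genes the sg1 libraries were the lowest of the 6. SH2D2A, a T cell adaptor protein, measured 799 and 792 FPKM in sgNTG cells, 713 and 697 in sg1 and 810.2 and 822 in sg2 (-0.17), and its 5′ end overlaps another gene on the other strand. With the other sign, COL3A1, a fibrillar collagen chain, measured 9.40 and 9.40 FPKM in sgNTG cells, 12.6 and 13.01 in sg1, and 10.1 and 9.85 in sg2 (log2 fold change 0.41). S100A4, a calcium-binding protein used as a mesenchymal marker, measured 200.5 and 214 FPKM in sgNTG cells, 257 and 264 in sg1, and 195 and 184 in sg2 (0.33). COL3A1 and S100A4 were highest in the 2 sg1 libraries. Across the 18 tested collagens, laminins and integrins 4 members lay above and 11 below in both sg1 libraries, against 22.2% above and 18.9% below over all tested genes, so that the count above was at the background. The median was -0.041, and it was -0.026 without sg1 replicate 1 and -0.016 with length and GC trends removed. The list's median transcript length was 6601 bases, against 3091 over all tested genes with a known length. In the quartile of protein-coding genes with the longest transcripts 12.98% lay above and 28.4% below. Laminin LAMC1 was one of the list members below, at 226 and 233 FPKM in sgNTG cells and 207 and 211 in sg1 (log2 fold change -0.13, limma adjusted p = 0.295).

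In the carnitine shuttle and mitochondrial fatty acid oxidation, the pathway of the target, no tested gene differed past the threshold with sg1. Of 28 genes in the list 12 were tested and none lay under an unadjusted p of 0.05 in limma, with a median log2 fold change of 0.017. That median ranged from 0.0027 with quantile normalization to 0.027 with a filter of 5 FPKM, and was 0.010 without sg1 replicate 1 and 0.0047 without sg1 replicate 2. CPT2, the inner membrane partner of CPT1, measured 6.25 and 5.45 FPKM in sgNTG cells, 5.83 and 5.36 in sg1, and 5.28 and 5.35 in sg2 (log2 fold change -0.052, SE 0.0841). SLC25A20, the carnitine-acylcarnitine carrier, measured 5.13 and 5.28 FPKM in sgNTG cells and 5.22 and 5.03 in sg1 (-0.019, SE 0.0745). The groups overlapped in both genes. CROT, the peroxisomal carnitine octanoyltransferase, had the lowest p of the list, at 4.76 and 3.88 FPKM in sgNTG cells, 3.59 and 3.59 in sg1 and 4.17 and 4.78 in sg2 (log2 fold change -0.21 with an SE of 0.107, limma adjusted p = 0.585). Log2 fold changes were 0.081 for the enoyl-CoA isomerase ECI2 and 0.047 for the acyl-CoA synthetase ACSL1. The medians were -0.063 over 5 peroxisomal oxidation genes, -0.016 over 6 fatty acid synthesis genes and -0.011 over 9 glycolytic genes, and none of these lists had a member under an unadjusted p of 0.05. The medians of the fatty acid synthesis and glycolysis lists changed sign under some alternatives, and the peroxisomal one was -0.035 without sgNTG replicate 2 and -0.10 with length and GC trends removed.

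Among PPAR targets and lipid droplet genes, PDK4, the kinase that shuts off pyruvate dehydrogenase, measured 80.3 and 82.0 FPKM in sgNTG cells, 69.5 and 72.6 in sg1, and 86.7 and 85.5 in sg2 (log2 fold change -0.19 in sg1, limma adjusted p = 0.268). DGAT1, which makes triacylglycerol, measured 2.74 and 2.93 FPKM in sgNTG cells, 3.92 and 4.22 in sg1, and 3.16 and 3.48 in sg2 (0.40, limma adjusted p = 0.284). These were the 2 of 7 tested members under an unadjusted p of 0.05, 1 of each sign, against 5.87% positive and 4.05% negative over all tested genes. PDK4 was higher with sg2 than with sg1 past the threshold (limma adjusted p = 0.0380).

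Genes of cholesterol synthesis and uptake stood mostly above the nontargeting guide. Of 15 tested members 10 lay above in both sg1 libraries (22.2% over all tested genes) and 1 below, and 8 lay under an unadjusted p of 0.05, all with positive log2 fold changes (5.87% over all tested genes). The median log2 fold change was 0.16. INSIG1, which holds the sterol sensor in the endoplasmic reticulum, measured 19.1 and 20.9 FPKM in sgNTG cells, 26.0 and 25.8 in sg1, and 20.6 and 20.2 in sg2 (log2 fold change 0.36 with an SE of 0.0558, limma adjusted p = 0.147). It was highest in the 2 sg1 libraries and lower in the other 4. HMGCS1, which makes HMG-CoA, measured 14.8 and 16.3 FPKM in sgNTG cells, 17.95 and 20.2 in sg1, and 19.96 and 18.8 in sg2 (0.28, limma adjusted p = 0.374). IDI1, the isopentenyl diphosphate isomerase, measured 34.4 and 30.7 FPKM in sgNTG cells and 37.2 and 37.7 in sg1 (0.20, limma adjusted p = 0.388). Over the alternatives the list's median stayed between 0.11 and 0.20, with the lowest value without sgNTG replicate 1. With sg2 it was 0.0017.

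On the export side, GRAMD1B, which moves cholesterol from the plasma membrane to the endoplasmic reticulum, measured 331 and 334 FPKM in sgNTG cells, 282 and 276 in sg1, and 354 and 362 in sg2 (log2 fold change -0.25, SE 0.0282). The cholesterol exporter ABCA1 measured 3.91 and 3.75 FPKM in sgNTG cells, 3.07 and 3.14 in sg1, and 4.14 and 3.90 in sg2 (-0.23, limma adjusted p = 0.413). Both genes were lowest in the sg1 libraries. They were the 2 of 9 tested members of the sterol export and transfer list under an unadjusted p of 0.05, against 4.05% of all tested genes with negative log2 fold changes. The list's median was 0.0015 and changed sign under 5 alternatives. STARD4, a sterol carrier counted with the synthesis genes, was the 1 member of that list below in both sg1 libraries (log2 fold change -0.098).

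Inducible heat shock proteins and co-chaperones, which fold proteins under stress, had 12 of 18 tested members above the sgNTG libraries in both sg1 libraries and 2 below, against 22.2% and 18.9% of all tested genes. Of the 18, 7 lay under an unadjusted p of 0.05, all with positive log2 fold changes (5.87% over all tested genes), and the median was 0.12. HSPA6, a strictly inducible member of the HSP70 family, measured 16.8 and 17.4 FPKM in sgNTG cells, 24.2 and 23.4 in sg1, and 23.9 and 22.9 in sg2 (log2 fold change 0.46 with an SE of 0.0502, limma adjusted p = 0.126). HSPA1A measured 114 and 113 FPKM in sgNTG cells, 139 and 134 in sg1, and 128 and 121 in sg2 (0.26, limma adjusted p = 0.141). HSPA1B, a near-identical neighbour of HSPA1A with which reads can be shared, measured 107 and 109 FPKM in sgNTG cells, 132 and 125 in sg1, and 118 and 114 in sg2 (0.25, limma adjusted p = 0.147). In these 3 genes the sgNTG libraries were the lowest of the 6. The mitochondrial chaperonin genes HSPE1 (log2 fold change 0.17) and HSPD1 (0.10) were also above in both sg1 libraries, while HSP90AB1, a constitutive HSP90, had a log2 fold change of 0.016. None of the 18 differed between the guides past the threshold, and the list's median with sg2 was 0.079.

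Heat shock factor binds repeats of nGAAn in alternate orientation. The sequences just before the transcription start of the 3 HSP70 genes are shown because they hold such repeats, with capitals for matches to GAANNTTC or TTCNNGAA, both of which read the same on either strand and can overlap each other. They come from RefSeq (GRCh38.p14), 5′ to 3′ on the plus strand, and cover chr1:161524340-161524539 for HSPA6, chr6:31815423-31815542 for HSPA1A and chr6:31827618-31827737 for HSPA1B.
HSPA6: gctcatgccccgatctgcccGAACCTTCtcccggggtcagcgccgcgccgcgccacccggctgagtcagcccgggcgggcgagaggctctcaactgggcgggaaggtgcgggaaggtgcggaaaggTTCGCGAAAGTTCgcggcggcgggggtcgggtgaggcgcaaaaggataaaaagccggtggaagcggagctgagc
HSPA1A: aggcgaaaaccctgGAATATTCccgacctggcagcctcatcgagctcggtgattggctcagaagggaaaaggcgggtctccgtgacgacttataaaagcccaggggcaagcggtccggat
HSPA1B: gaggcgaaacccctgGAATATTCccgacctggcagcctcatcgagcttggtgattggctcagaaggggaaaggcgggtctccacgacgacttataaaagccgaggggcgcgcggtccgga
Within the 250 bases before a start, HSPA6 held 3 matches and HSPA1A and HSPA1B 1 each. Matches were not confined to members with the larger changes. CHORDC1 held 6 with a log2 fold change of 0.012, and HSP90AB1 held 4 in a window with 0.016. HSPE1 (0.17) and HSPH1 (0.14) held none, while HSPD1 (0.10) held 3 in a window. HSPD1 and HSPE1 lie side by side on opposite strands. The HSPD1 window with the matches (chr2:197499841-197500090) ends just outside the HSPE1 window (chr2:197500129-197500378). The cut at 250 bases thus left these matches out for HSPE1. Of the 18 tested members 16 had a promoter in the RefSeq table, and 11 of them (68.8%) held a match in at least 1 window, compared with 13.96% of 27305 genes. The list was chosen as inducible heat shock genes, so a higher share was set by that choice and is no result about sg1. HSPA1L and HSPA1A were counted separately, though their windows overlap and hold the same match. Counted by window, GAANNTTC stood in 5.78%, TTCNNGAA in 6.62% and either in 11.6% of 35116 windows. A match is a run of letters, and binding was not measured here.

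The immediate early genes, transcription factors and phosphatases that respond within minutes to growth signals, had 9 of 19 tested members above in both sg1 libraries and 3 below, against 22.2% and 18.9% of all tested genes. FOS measured 68.3 and 68.1 FPKM in sgNTG cells, 88.3 and 82.3 in sg1, and 75.0 and 72.5 in sg2 (log2 fold change 0.32, SE 0.0453). JUNB measured 52.5 and 54.0 FPKM in sgNTG cells and 62.0 and 59.8 in sg1 (0.19, limma adjusted p = 0.284). EGR1 measured 34.97 and 34.7 FPKM in sgNTG cells, 41.0 and 41.2 in sg1, and 38.9 and 34.96 in sg2 (0.23, limma adjusted p = 0.317). All 3 were highest in the sg1 libraries. DUSP1, a phosphatase of MAP kinases, had a log2 fold change of 0.17. Of the 19, 6 lay under an unadjusted p of 0.05, all with positive log2 fold changes (5.87% over all tested genes), and the list's median was 0.059, with 0.096 without sg1 replicate 1.

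Among the targets of NRF2, the regulator of detoxification, 4 of 20 tested members lay under an unadjusted p of 0.05 with positive log2 fold changes and 1 with a negative one, against 5.87% and 4.05% of all tested genes. AKR1B10, an aldo-keto reductase, measured 459 and 468 FPKM in sgNTG cells, 541 and 552 in sg1, and 417 and 401 in sg2 (log2 fold change 0.24 with an SE of 0.0299, limma adjusted p = 0.132). The epoxide hydrolase EPHX1 measured 112 and 115 FPKM in sgNTG cells, 136 and 131 in sg1, and 102 and 97.6 in sg2 (0.23, limma adjusted p = 0.170). In both genes sg1 was the highest group and sg2 the lowest. The list's median was -0.011, against 0.0070 over all tested genes, and it changed sign under 1 alternative. In the amino acid stress response driven by ATF4, CTH, the cystathionine gamma-lyase that makes cysteine, measured 58.5 and 59.5 FPKM in sgNTG cells, 49.4 and 49.1 in sg1, and 67.8 and 65.5 in sg2 (-0.25, SE 0.0380). The tryptophanyl-tRNA synthetase WARS1 measured 458 and 436 FPKM in sgNTG cells and 372 and 377 in sg1 (-0.25, limma adjusted p = 0.268). ATF4 itself (log2 fold change 0.14) and the mitochondrial folate enzyme MTHFD2 (0.17) had the other sign. Members of both signs stood in this list of 17, with 3 positive and 2 negative under an unadjusted p of 0.05 and a median of 0.052, which was 0.034 without sg1 replicate 2, 0.032 with quantile normalization and 0.027 with length and GC trends removed.

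Cytosolic ribosomal protein genes lay above in both sg1 libraries in 29 of 44 tested members and below in 3, against 22.2% and 18.9% of all tested genes. Of the 44, 15 lay under an unadjusted p of 0.05, all with positive log2 fold changes (5.87% over all tested genes), and the median was 0.085, which was 0.038 with quantile normalization. RPS15 measured 227 and 234 FPKM in sgNTG cells, 261 and 258 in sg1, and 229 and 218 in sg2 (log2 fold change 0.17, limma adjusted p = 0.268). RPS21 measured 163 and 160.2 FPKM in sgNTG cells, 183 and 176 in sg1, and 142 and 142 in sg2 (0.15, limma adjusted p = 0.275). In RPS21 the sg1 libraries were the highest and the sg2 libraries the lowest. The median with sg2 was -0.099, and 10 of the 44 were lower with sg2 than with sg1 past the threshold, beside 0.776% of all tested genes. Replication-dependent histone genes, whose mRNAs mostly lack a poly(A) tail, had 6 of 13 tested members above and none below, beside the same shares of all tested genes. The linker histone H1-2 measured 20.3 and 20.3 FPKM in sgNTG cells, 26.3 and 27.3 in sg1, and 18.8 and 21.8 in sg2 (0.39, limma adjusted p = 0.236). H2BC5 measured 7.11 and 7.60 FPKM in sgNTG cells and 9.09 and 9.01 in sg1 (0.27, limma adjusted p = 0.315). The histone median was 0.15, with 0.059 without sgNTG replicate 2 and 0.067 with a pseudocount of 5.

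**Figure D3:**
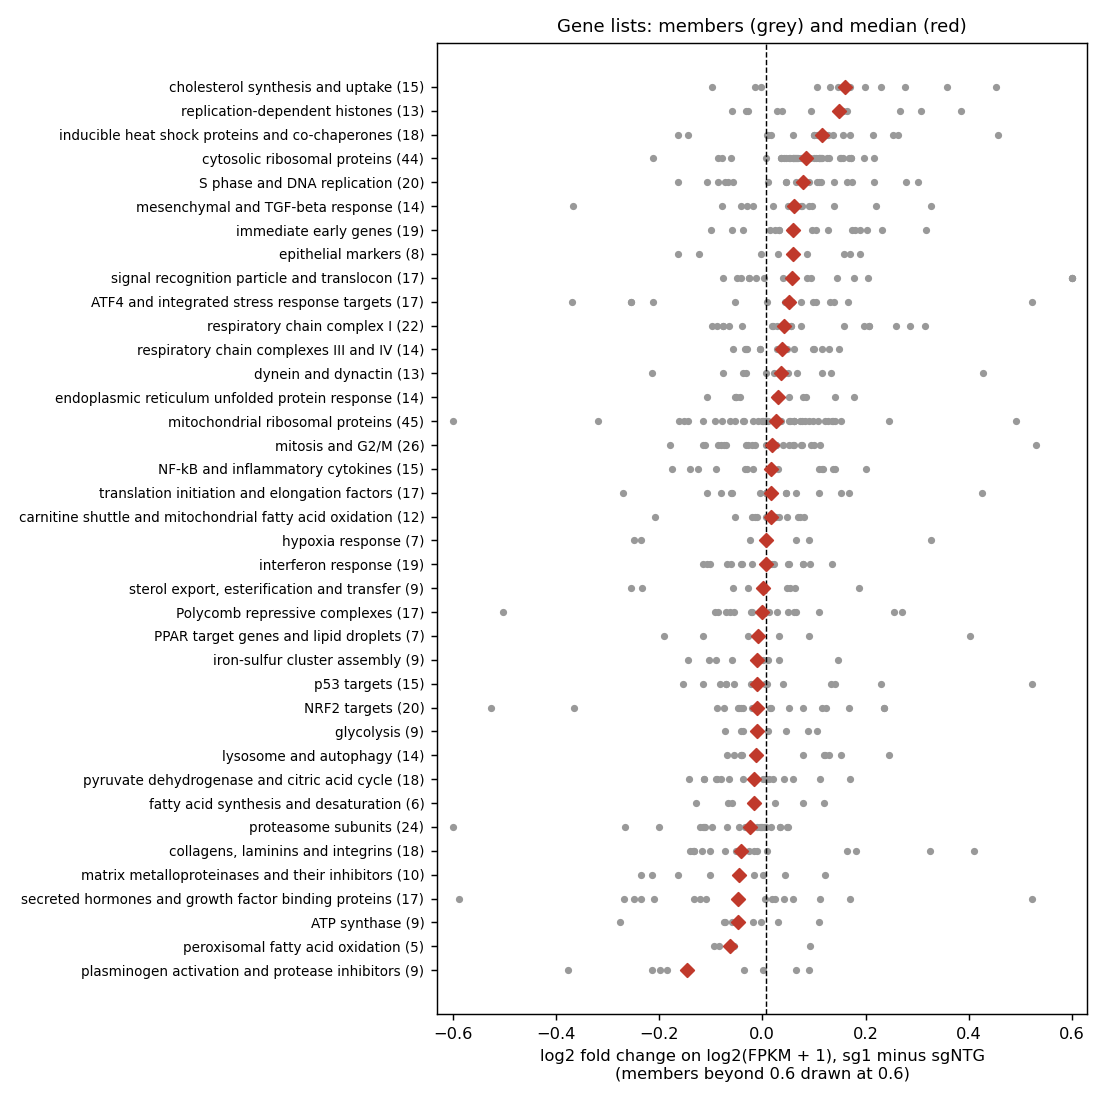
Log2 fold change of sg1 minus sgNTG for the tested members (grey points) of the 38 gene lists with at least 5 tested members, with the median of each list (red diamonds), the number of tested members in brackets and the median of all tested genes (dashed line, 0.0070). Points beyond 0.6 are drawn at 0.6. The medians run from -0.15 for plasminogen activation to 0.16 for cholesterol synthesis.

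Subunits of the proteasome, the protease that degrades ubiquitin-tagged proteins, had 5 of 24 tested members under an unadjusted p of 0.05, all with negative log2 fold changes (4.05% over all tested genes). Among these 5 was PSMA6 (-0.80), which overlaps ENSG00000258790 on the same strand, so reads can be assigned to either gene. PSMD12, of the regulatory particle, measured 48.1 and 45.7 FPKM in sgNTG cells, 38.5 and 39.2 in sg1, and 49.4 and 49.0 in sg2 (log2 fold change -0.27 with an SE of 0.0427, limma adjusted p = 0.151). The ATPase PSMC2 measured 23.4 and 23.5 FPKM in sgNTG cells, 19.97 and 20.6 in sg1, and 22.7 and 23.4 in sg2 (-0.20, limma adjusted p = 0.311). Both were lowest in the sg1 libraries, but the list's median was -0.024, with -0.056 without sgNTG replicate 1 and -0.0088 without sgNTG replicate 2. Of the nuclear-encoded subunits of respiratory complex I, 4 of 22 lay under an unadjusted p of 0.05, all with positive log2 fold changes (5.87% over all tested genes). The median was 0.042, with 0.073 without sgNTG replicate 1 and 0.019 with length and GC trends removed. NDUFB7 measured 12.5 and 12.1 FPKM in sgNTG cells, 16.6 and 14.5 in sg1, and 11.8 and 10.7 in sg2 (0.32, limma adjusted p = 0.327). ATP5MG, a subunit of ATP synthase, had the other sign, with 35.6 and 33.8 FPKM in sgNTG cells, 30.1 and 26.9 in sg1 and 24.5 and 25.1 in sg2 (-0.28, limma adjusted p = 0.314). Of the mitochondrial ribosomal proteins, 2 of 45 lay under an unadjusted p of 0.05 with each sign, near the shares of all tested genes. MRPL53 measured 10.9 and 15.04 FPKM in sgNTG cells, 4.45 and 6.23 in sg1, and 15.7 and 13.7 in sg2 (-1.14, SE 0.181, limma adjusted p = 0.151), so that the sg1 libraries were the lowest of the 6. It was higher with sg2 than with sg1 past the threshold (log2 difference 1.32, limma adjusted p = 0.0380).

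A few genes of lowest p belong to cell division, transport and chromatin. CENPN, which binds the centromeric nucleosome, measured 5.84 and 5.63 FPKM in sgNTG cells, 8.89 and 8.57 in sg1, and 5.89 and 6.29 in sg2 (log2 fold change 0.53 with an SE of 0.0661, limma adjusted p = 0.132). It overlaps CMC2 on the other strand, and the strand setting of the authors' counting is not given in the sources used here. DYNLRB1, a light chain of the motor dynein, measured 39.7 and 37.5 FPKM in sgNTG cells, 53.3 and 51.1 in sg1, and 40.3 and 41.6 in sg2 (0.43, SE 0.0477, limma adjusted p = 0.126). DPM3, a subunit of dolichol-phosphate mannose synthase, measured 15.3 and 15.4 FPKM in sgNTG cells, 19.8 and 19.6 in sg1, and 15.04 and 15.6 in sg2 (0.34, limma adjusted p = 0.141). All 3 were highest in the sg1 libraries, while the other 4 libraries lay close together. SNORA2A, a small nucleolar RNA inside KANSL2 on the same strand, measured 0.477 and 0.405 FPKM in sgNTG cells, 1.76 and 1.74 in sg1, and 1.70 and 1.41 in sg2 (0.93, limma adjusted p = 0.135). It averaged 0.441 FPKM in sgNTG cells and passed the 1 FPKM filter only through the guide libraries. The ribosomal protein pseudogene RPL36AP44 had the other sign, at 4.62 and 5.80 FPKM in sgNTG cells, 2.85 and 2.74 in sg1, and 3.51 and 3.57 in sg2 (-0.70, limma adjusted p = 0.141). CBX2, a chromodomain subunit of Polycomb repressive complex 1, measured 7.51 and 6.66 FPKM in sgNTG cells, 4.60 and 4.80 in sg1, and 4.10 and 3.92 in sg2 (-0.50, limma adjusted p = 0.151). Here the libraries of both guides lay below sgNTG. In the lists as a whole, 1 of 26 mitosis and G2/M genes lay under an unadjusted p of 0.05 with each sign, near the shares of all tested genes (5.87% and 4.05%). Their median was 0.018 and changed sign under 1 alternative. None of 20 S phase genes lay under that p. The S phase median was 0.078, with 0.046 without sgNTG replicate 1, 0.045 without sgNTG replicate 2, 0.051 without sg1 replicate 2 and 0.041 with a pseudocount of 5. The interferon response had none of 19 under an unadjusted p of 0.05, with a median of 0.0077 that changed sign under 3 alternatives.

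The 20 genes with the largest absolute log2 fold changes, 10 on each side, were taken among genes with an unadjusted p under 0.05 whose sg1 and sgNTG libraries did not overlap. Of these 20, 12 shared their place with another gene with a mean of at least 1 FPKM and 2 had no GENCODE 29 position, while 20.2% of the 8700 tested genes with a position did so. Where genes overlap, reads can be assigned to either. ENSG00000258790 (chr14:35122549-35317474, plus strand) measured 3.55 and 5.42 FPKM in sgNTG cells, 19.7 and 25.7 in sg1, and 19.1 and 9.94 in sg2 (log2 fold change 2.12 with an SE of 0.305, limma adjusted p = 0.141). PSMA6, a proteasome subunit at its 3′ end on the same strand, measured 91.0 and 96.4 FPKM in sgNTG cells, 62.8 and 45.5 in sg1, and 55.5 and 84.9 in sg2 (-0.80, limma adjusted p = 0.351). The pair summed to 94.5 and 101.8 FPKM in sgNTG cells, 82.5 and 71.2 in sg1, and 74.7 and 94.8 in sg2. The phosphatase gene PTP4A1 measured 6.52 and 19.98 FPKM in sgNTG cells, 36.9 and 69.4 in sg1, and 153 and 139.6 in sg2 (2.04, SE 0.488, limma adjusted p = 0.315). Its sum with the overlapping ENSG00000285976 was 169 and 177 FPKM in sgNTG cells, 161 and 168 in sg1, and 176 and 173 in sg2, so the pair as a whole differed little while its division did.

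Of the 10 genes so taken on the negative side, 4 are named as readthrough transcripts that join a pair of genes. The share of such names over all tested genes was not counted, so this count is no result about readthrough transcripts. NME1-NME2, which spans the nucleoside diphosphate kinase genes NME1 and NME2, measured 33.5 and 23.3 FPKM in sgNTG cells, 10.2 and 11.5 in sg1, and 8.72 and 15.7 in sg2 (log2 fold change -1.29 with an SE of 0.269, limma adjusted p = 0.272). NME1 measured 48.9 and 54.2 FPKM in sgNTG cells and 61.3 and 63.7 in sg1. BIVM-ERCC5 measured 4.92 and 4.79 FPKM in sgNTG cells, 0.0331 and 2.64 in sg1, and 0.515 and 2.33 in sg2 (-1.60, SE 0.608), while BIVM measured 6.68 and 7.38 in sgNTG cells and 10.5 and 8.31 in sg1. HNRNPUL2-BSCL2 measured 3.68 and 3.14 FPKM in sgNTG cells, 0.232 and a listed 0 in sg1, and 0.255 and 2.95 in sg2 (-1.99, SE 0.486, limma adjusted p = 0.317). MSANTD3-TMEFF1 had a log2 fold change of -0.91. In each of these genes the 2 libraries of at least 1 group stood apart from each other. The others on the positive side included SMG1P1 (1.17), ENSG00000167774 (1.12), HERC2P3 (1.10), NPIPP1 (0.998) and LBHD1 (0.90), each at most 1.66 FPKM in the sgNTG libraries. SMG1P1, ENSG00000167774 and NPIPP1 averaged under 1 FPKM there and passed the filter only through the guide libraries. On the negative side they included ENSG00000288710 (-2.30), the antisense RNA RPL30-AS1 (-1.27), ENSG00000289720 (-0.81) and ENSG00000256349 (-0.76), and ENSG00000288710 measured 1.61 and 22.02 FPKM in its 2 sgNTG libraries. ENSG00000288710 and MSANTD3-TMEFF1 averaged under 1 FPKM with both guides (0.592 and 0.673 with sg1). They passed the filter only through the sgNTG libraries, so their sign was favoured by it. HNRNPUL2-BSCL2 and ENSG00000256349 averaged 0.116 and 0.660 FPKM with sg1, also under 1.

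**Figure D4:**
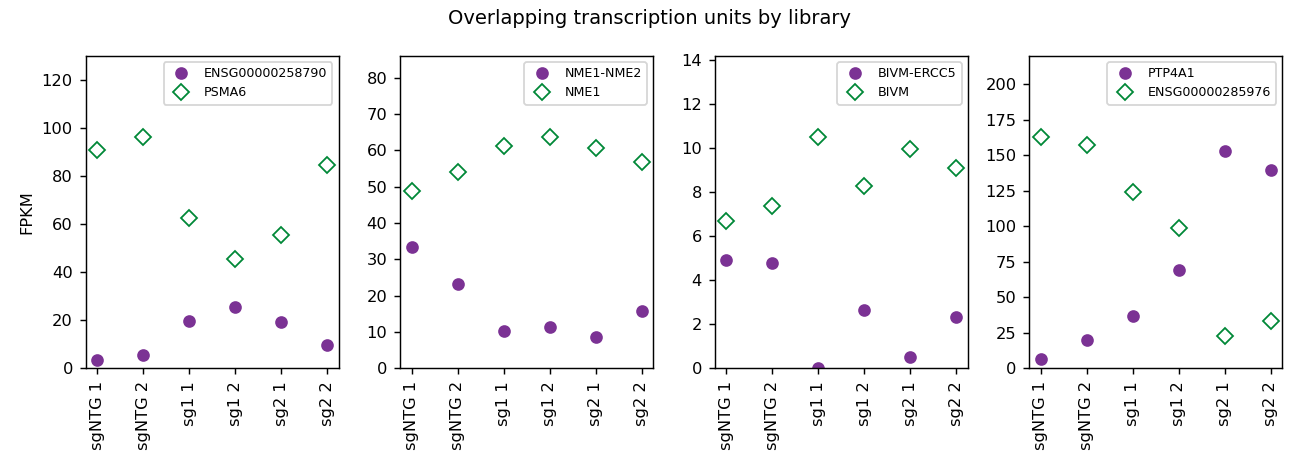
FPKM in the 6 libraries for 4 pairs of overlapping genes, 1 panel per pair, with filled circles for the first and open diamonds for the second gene of the pair. In the sg1 libraries ENSG00000258790 and PTP4A1 are above and PSMA6 and ENSG00000285976 below their sgNTG values, and NME1-NME2 and BIVM-ERCC5 are below while NME1 and BIVM are above.

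In the remaining lists few members stood out, and the count under an unadjusted p of 0.05 is given for each with its leading members. Over all tested genes that share is 5.87% with positive and 4.05% with negative log2 fold changes, which in lists of this size amounts to about 1 gene or fewer, so a count of 1 is not a result about a list. Translation factors had 3 of 17, all positive, led by the elongation factor EEF2 (log2 fold change 0.11) and TPT1 (0.43). NF-kB and inflammatory genes had 3 of 15 positive, the cytokine IL6 (0.11), PTGS2 (0.12) and NFKB2 (0.12), and 1 negative, IL1A (-0.14). The p53 targets had 2 of 15 positive, GDF15 and GADD45A (0.23), and 1 negative, the cell cycle inhibitor CDKN1A (-0.15). Hypoxia genes had 1 of 7 positive, the carbonic anhydrase CA9 (0.33), and 1 negative, STC1. Epithelial markers had 3 of 8, all positive, KRT19 (0.17), KRT18 (0.16) and CD24 (0.09), and mesenchymal genes 2 of 14, S100A4 and TGFB2 (0.14). Matrix metalloproteinases and their inhibitors had 2 of 10, both negative, TIMP2 (-0.10) and MMP10 (-0.23). Pyruvate dehydrogenase and the citric acid cycle had 2 of 18, PDHB (0.17) and IDH3G (0.11), and lysosome genes 2 of 14, LAMP1 (0.12) and ULK1 (0.13), all positive. Of the unfolded protein response 1 of 14 was positive, PDIA4 (0.14), and of iron-sulfur cluster assembly 1 of 9 was negative, BOLA3 (-0.14). Respiratory complexes III and IV had 1 of 14, COX8A (0.13), and the Polycomb complexes had MTF2 (0.26) beside CBX2. No member of these lists passed the threshold over all tested genes.

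Gene length and base composition moved with the differences, a check chosen after values were seen. Among protein-coding genes, in the quartile with the shortest transcripts (217 to 2412 bases) 27.96% lay above and 14.6% below in both sg1 libraries, and in the quartile with the longest 12.98% lay above and 28.4% below. The medians of the log2 fold change were 0.028 and -0.025 in sg1, and -0.025 and 0.026 in sg2. In the quartile of lowest GC content 15.2% lay above and 23.5% below, and in that of highest GC content 29.5% and 12.7%. Pseudogenes, 1062 of the tested genes, had 25.2% above and 14.2% below. These shares stand against 22.2% and 18.9% over all tested genes. The ribosomal protein list had a median transcript length of 1809 bases and the histone list of 1237, against 3091 over all genes with a known length, and with trends on length and GC content removed their medians were 0.072 and 0.076. The cholesterol list, at 3180 bases, had a median of 0.16, the heat shock list of 0.097 and the plasminogen list of -0.15 after that removal. With the trends removed RN7SL2 had a log2 fold change of 1.49 and was not called (limma adjusted p = 0.0554), and the medians of 7 of the 38 lists changed sign.

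**Figure D5:**
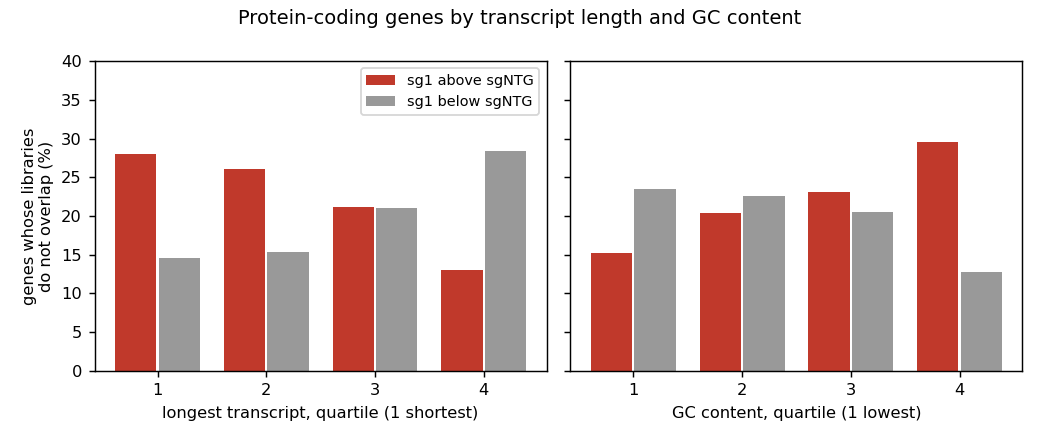
Share of protein-coding genes (%) whose 2 sg1 libraries both lay above (red) or both below (grey) both sgNTG libraries, by quartile of longest transcript length (left, 1 shortest) and of GC content (right, 1 lowest). The share above goes from 27.96% in the shortest to 12.98% in the longest quartile, and from 15.2% to 29.5% with GC content.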

How the data were processed

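Per the labels' protocols, RNA was extracted with TRIzol and libraries were made from RNA captured on mRNA beads. The authors deposited 1 table of FPKM values, normalized by them for transcript length and mapped fragments. STAR, StringTie and the build hg38 are named, per the submitters' processing notes. Tool versions, annotation, filters and strandedness were not given in the sources used here, and depth is unknown in FPKM. The 6 columns matched the 6 samples by name. Of 52807 rows 32 repeated another row and were kept once, and 47588 of 51447 names matched GENCODE 29. All 37 mitochondrial genes stood at 0 throughout, so a listed 0 was not read as absence.

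Values were taken as log2(FPKM + 1), and 8887 genes averaging 1 FPKM or more were fitted with limma 3.58.1 in R 4.3.3 (lmFit, then eBayes with a variance trend), with 1 mean per group over all 6 libraries and no block. Tests were two-sided, adjusted by the Benjamini-Hochberg method over all tested genes, with a threshold of 0.05. FPKM are not counts, and no count model was used. Recovery of known changes was tested on simulated data. The 38 gene lists with at least 5 tested members are described by counts and medians beside those of all genes. The comparison, the members and the lists were chosen with earlier results of these data known.

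Named genes were every called gene, the 12 of lowest p in each direction among genes whose sg1 and sgNTG libraries did not overlap, the 10 largest changes in each direction among such genes with an unadjusted p under 0.05, and up to 4 members of lowest p in each list. Other list members are named by role with their values. Alternatives changed the pseudocount, filter, variance trend, scaling, robustness, block, length and GC trends and the libraries used. Promoters are from RefSeq and 7SL transcripts from GENCODE 29. Some list members and transcript sequences are not reported here.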

Additional observations from a re-analysis of the deposited data

Results flagged for a closer look

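For 28 of the 119 tested genes named in the report, a test of the difference between the guides (sg2 minus sg1, limma, adjusted p under 0.05) passed the threshold, so that the change with sg1 and the change with sg2 against the shared sgNTG libraries differed. Over all 8887 tested genes 115 passed it. Many of the 119 named genes were picked by their sg1 libraries, which that test also uses. The 15 genes higher with sg2 than with sg1 were MRPL53 (log2 difference 1.32), PAEP (0.76), IGFBP1 (0.69), PLAT (0.64), AKAP12 (0.58), STC1 (0.48), CTH (0.43), TFPI2 (0.42), THBD (0.39), NCAM1 (0.38), GRAMD1B (0.36), PSMD12 (0.33), PDK4 (0.27), AREG (0.26) and SH2D2A (0.21). In all of these but MRPL53 both sg1 libraries lay below and both sg2 libraries above the 2 sgNTG libraries.

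The 13 genes lower with sg2 than with sg1 were ENSG00000285976 (-1.96), which overlaps PTP4A1, GDF15 (-0.54), S100A4 (-0.46), CENPN (-0.46), AKR1B10 (-0.42), EPHX1 (-0.42), H2BC5 (-0.41), DYNLRB1 (-0.34), DPM3 (-0.34), RPS21 (-0.34), BOLA3 (-0.32), KRT19 (-0.30) and EEF2 (-0.20). In S100A4, AKR1B10, EPHX1, H2BC5, RPS21, KRT19 and EEF2 both sg1 libraries lay above and both sg2 libraries below the sgNTG libraries.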

How the results depend on the processing

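The call of RN7SL2 was made in 11 of 18 alternatives. The number of genes higher with sg1 than sgNTG was 0 with a replicate block (limma adjusted p of RN7SL2 0.0676), 0 without a filter on low values (0.422), 0 without a variance trend (0.0984) and 0 with length and GC trends removed (0.0554). It was 0 to 4 with 1 library left out, namely 0 without sgNTG replicate 1 or sg1 replicate 2, 4 without sgNTG replicate 2 and 3 without sg1 replicate 1, and the number lower was 0 to 2. The log2 fold change of RN7SL2 ranged from 0.97 with a pseudocount of 5 to 1.83 with 0.1. Between the guides, where 46 genes were higher and 69 lower with sg2, the numbers were 5 and 0 with a replicate block, 89 and 128 with a filter of 5 FPKM, 14 and 13 with a filter of 0.1 FPKM, 0 and 0 without a filter, 0 and 0 without a variance trend, 28 and 30 with length and GC trends removed, 12 and 14 with only the 4 libraries compared, 59 and 26 with quantile normalization, and 3 to 12 and 1 to 14 with 1 library left out. The causes were not tested. Across the tested genes, the difference between replicates 1 and 2 was nearly uncorrelated between groups. The correlation was 0.0343 between sgNTG and sg1, -0.0276 between sgNTG and sg2, and 0.0603 between sg1 and sg2. These values show no shared deviation of same-numbered libraries, but cannot exclude that such libraries were cultured or prepared together. The 24 genes of lowest p kept their sign in all alternatives in which they were tested. List medians kept their sign in 20 of 38 lists and changed it under at least 1 alternative in 18. With 2 libraries per group and unknown depth, differences near 0.087 on the log2 scale between single libraries lie within the spread of 2 libraries of a group.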
